A study of Solanum lycopersicum with 4 samples.

Results

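The genes described here are the C-class and D-class MADS-box genes of tomato (Solanum lycopersicum), a group of 4 among the 33976 genes quantified. They were chosen by gene ID: TAG1 (Solyc02g071730), TAGL1 (Solyc07g055920), AGL11 (Solyc11g028020) and MBP3 (Solyc06g064840). All 4 IDs were found, as 1 transcript each. RNA was sequenced from floral apices and closed flower buds of plants labelled 156OE, which are MT plants overexpressing the microRNA miR156, and of MT plants without the transgene, with 2 libraries per genotype. MT is commonly short for Micro-Tom, a dwarf cultivar. The labels give no plant age, no promoter or line number for the transgene, and do not say whether replicates are separate plants. A p-value here thus reflects the spread between libraries, which may be technical. By its title, the study asks how gibberellin and the module of miR156 and its SBP targets act on floral meristem activity and fruit patterning.

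MADS-box transcription factors specify floral organs in combinations. C-class factors, of which AGAMOUS of Arabidopsis is the best known, give stamens and carpels their identity and end the activity of the floral meristem, so that a flower makes a fixed number of organs. D-class factors, of the SEEDSTICK type, act later in ovules and seeds. TAG1 is the AGAMOUS-type gene of tomato and TAGL1 belongs to the sister lineage of the SHATTERPROOF genes of Arabidopsis, known in tomato for fleshy fruit expansion and ripening. AGL11 and MBP3 are the SEEDSTICK-type genes. MiR156 lowers the transcripts of SBP-box factors, which promote the passage to flowering and, in tomato, act in the young gynoecium.

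The 156OE libraries held 8440384 and 1685657 assigned reads (replicates 1 and 2), and the MT libraries 11203505 and 9369713. 156OE replicate 2 stands apart by its depth, and 1 read there weighs more than in any other library: the floor of 3 reads is 1.78 CPM (reads per 1000000 assigned reads) in it, against 0.355 CPM in 156OE replicate 1 and 0.268 and 0.320 CPM in the MT replicates. Of 4 listed IDs of the SBP-box family, which contains the known targets of miR156, 3 had both 156OE libraries below both MT libraries, both on CPM, as did 29.7% of all genes tested, and on TMM-scaled levels, as did 23.7%. Solyc03g114850, the most abundant of them, had 109 and 87.9 CPM in 156OE and 320 and 365 CPM in MT (log2 change -1.70 ± 0.13 SE, edgeR adjusted p = 0.132). The tissue carried the meristem regulators WUS, CLV3 and TKN2 in every library (WUS at 13.3 and 13.6 CPM in 156OE and 17.7 and 12.8 CPM in MT). Of the pollen gene LAT52, 1 read was assigned over all libraries.

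Reads of both C-class genes were assigned in every library, though only 2 of TAGL1 in 156OE replicate 2, under the floor of 3 reads, and the D-class genes had 0 to 2 reads per library. TAG1 was the most abundant of the group, at 23.9 and 3.02 TPM (transcripts per 1000000, a per-length abundance) in 156OE and 11.9 and 13.3 TPM in MT. TAGL1 had 3.91 and 1.17 TPM in 156OE and 2.41 and 2.25 TPM in MT. The order of levels was TAG1, TAGL1, then the D-class genes. Neighbours in this order differed beyond counting error in some libraries only. In bulk tissue, fewer cells of a type and less RNA per cell cannot be told apart.

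**Figure D1:**
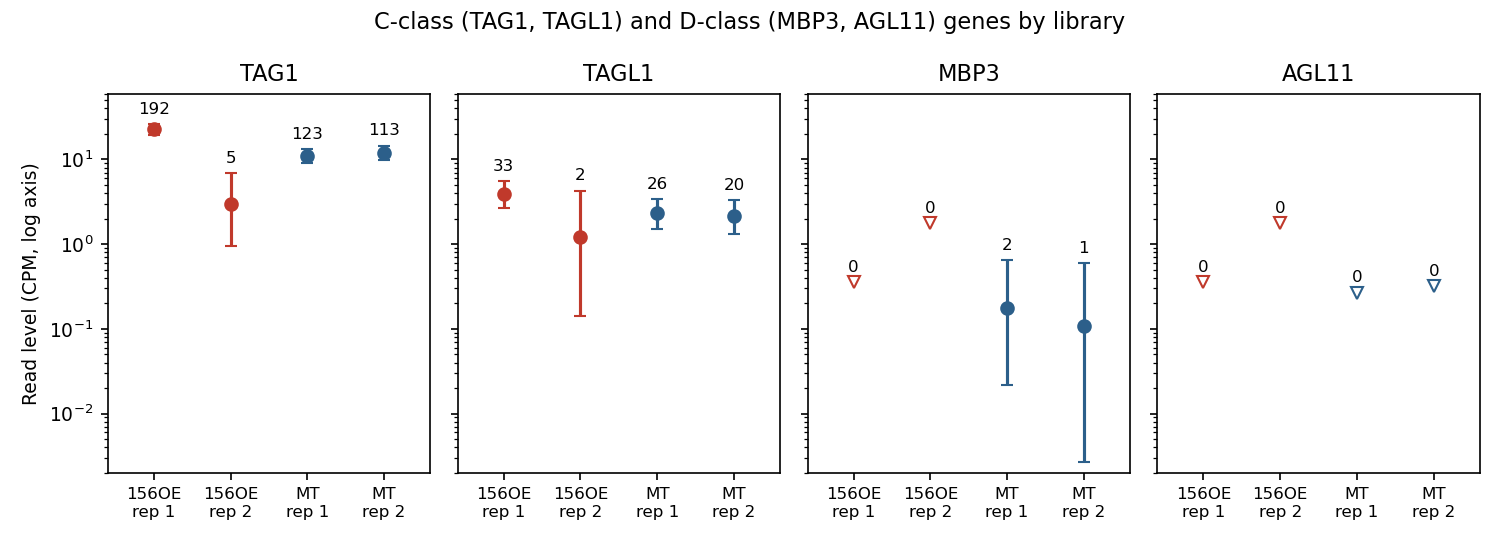
Read level in CPM (log axis) of TAG1, TAGL1, MBP3 and AGL11 in each 156OE (red) and MT (blue) library, with the number of assigned reads printed above each point. Bars are exact 95% Poisson intervals for counting error, and open triangles mark the floor of 3 reads where no read was assigned. TAG1 and TAGL1 lie highest in 156OE replicate 1 and lowest in 156OE replicate 2, with the MT libraries close together between them, and AGL11 has 0 reads in all 4 libraries.

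TAG1, which gives stamens and carpels their identity, had 192 and 5 reads in 156OE and 123 and 113 reads in MT. These are 22.8 and 2.97 CPM in 156OE and 10.99 and 12.06 CPM in MT. The MT replicates lay close together, and the 156OE replicates lay on opposite sides of both of them. Averaged, TAG1 had 12.9 ± 14.0 CPM in 156OE and 11.5 ± 0.757 CPM in MT (SD, n = 2 each). In the fit across all 18385 genes that passed the low-count filter, its log2 change of 156OE over MT was 0.41 ± 0.65 (SE), with a 95% interval from -1.24 to 2.06 (edgeR quasi-likelihood test, adjusted p = 0.838, unadjusted p = 0.551). In that test 0.00544% of genes were called higher and 0% lower in 156OE at an adjusted p of 0.05, which is 1 gene and 0 genes. At an unadjusted p under 0.05, 1155 genes (6.28%) were higher and 940 (5.11%) lower, and TAG1 was not among them. DESeq2 called 0.789% of genes higher and 0.294% lower, and not TAG1. The difference between genotypes was smaller than the spread between the 156OE libraries.

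Within 156OE the TAG1 libraries differed by more than counting error. Per assigned read, replicate 1 had 7.67 times the level of replicate 2 (exact 95% interval 3.23 to 23.9), and 6.78 times after TMM scaling, edgeR's correction for library composition. Between the MT replicates the same ratio was 0.910 (0.699 to 1.19). A ratio between the 156OE libraries at least as large as that of TAG1, or no read in replicate 2, was found in 1.63% of the tested genes. At the mean MT level, 156OE replicate 2 would have held 19.4 TAG1 reads, against the 5 assigned. Set against both MT libraries together, 156OE replicate 1 stood at 1.98 times (1.63 to 2.41) and 156OE replicate 2 at 0.259 times (0.0832 to 0.612). These intervals compare single libraries and cover counting error only.

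Fits that kept 1 of the 156OE libraries therefore gave opposite calls for TAG1. With 156OE replicate 2 left out, TAG1 rose by 0.99 ± 0.19 on the log2 scale (SE; adjusted p = 0.00792 in edgeR). In that fit 3.45% of genes were higher and 2.28% lower. With 156OE replicate 1 left out, its log2 change was -1.77 ± 0.50, so it fell (SE; adjusted p = 0.042 in edgeR). There 8.16% of genes were higher and 2.48% lower. Both fits use the same MT libraries and take the lone 156OE library to vary as the MT pair did. The depth of 156OE replicate 2 moves with the second value, and its part in it was not tested.

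TAGL1, the SHATTERPROOF-type gene, had 33 and 2 reads in 156OE and 26 and 20 reads in MT. Its levels were 3.91 and 1.20 CPM in 156OE and 2.32 and 2.13 CPM in MT. As for TAG1, the 156OE replicates lay above and below both MT replicates. The means were 2.56 ± 1.91 CPM in 156OE and 2.23 ± 0.132 CPM in MT (SD, n = 2 each), and the log2 change was 0.50 ± 0.49 (SE), with a 95% interval from -0.75 to 1.75 (edgeR adjusted p = 0.708, unadjusted p = 0.354). For TAGL1, unlike TAG1, counting error alone spans the gap between the 156OE libraries: the ratio of replicate 1 to replicate 2 was 3.30 with an exact 95% interval of 0.843 to 28.3. As large a ratio, or no read in replicate 2, was found in 3.68% of the tested genes. At the MT level 3.76 reads would have fallen in 156OE replicate 2, against 2 assigned, so a lower level in that library was not detectable at its depth. In 156OE replicate 1 the level was 1.75 times that of both MT libraries together (1.08 to 2.79). Leaving out 156OE replicate 2 gave TAGL1 a log2 change of 0.82 ± 0.40 (SE; adjusted p = 0.291 in edgeR), and leaving out 156OE replicate 1 gave -0.73 ± 0.93 (SE; adjusted p = 0.681 in edgeR). Neither passed.

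**Figure D2:**
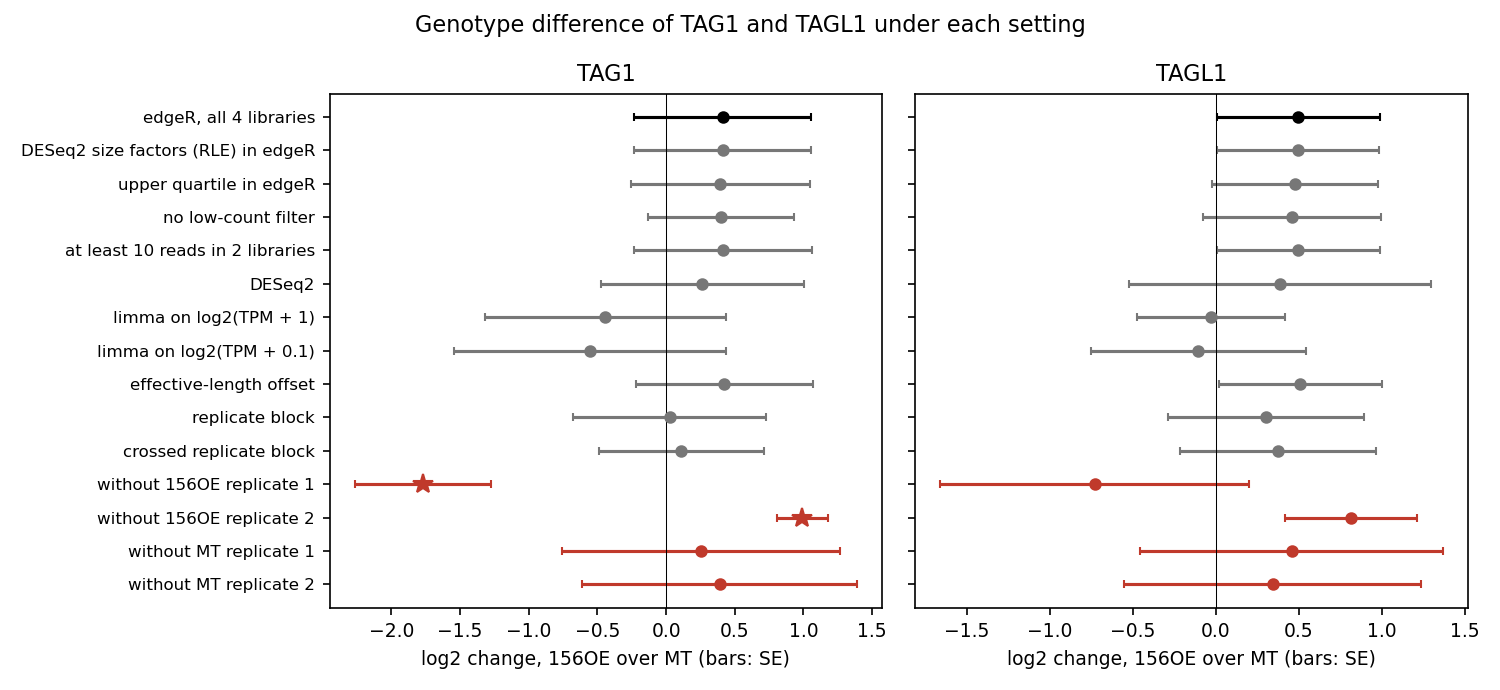
Log2 change of 156OE over MT with its standard error for TAG1 (left) and TAGL1 (right), in the edgeR fit with all 4 libraries (black), under other scalings, filters, tools and blocks (grey) and without each library in turn (red). Stars mark an adjusted p under 0.05, which only TAG1 reaches, once on each side of 0, with 156OE replicate 2 left out (0.99) and with 156OE replicate 1 left out (-1.77).

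The ratio between the C-class genes differed by less than counting error among the deeper libraries. TAG1 had 6.10 times as many reads per effective length as TAGL1 in 156OE replicate 1 (exact 95% interval 4.20 to 9.11), 4.95 times in MT replicate 1 (3.22 to 7.88) and 5.92 times in MT replicate 2 (3.66 to 10.1). In 156OE replicate 2 the ratio was 2.62, from 5 and 2 reads, and its interval from 0.429 to 27.5 holds the ratios of the other libraries and also 1. TAG1 thus made up 85.9% and 72.1% of the group's summed TPM in 156OE and 81.5% and 84.5% in MT, and TAGL1 14.1% and 27.9% in 156OE and 16.4% and 14.3% in MT. The low share of TAG1 in 156OE replicate 2 rests on 7 reads of the group (95% interval of the share of reads 29.0% to 96.3%, Clopper-Pearson). Among all genes with a TPM above 0, 66.1% and 16.7% were less abundant than TAG1 in the 156OE libraries and 46.7% and 48.3% in the MT libraries. The genes with a read numbered 22401 and 19846 in 156OE and 22566 and 22283 in MT. These percentages thus depend on depth too, and its part in the 16.7% was not tested.

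The D-class genes gave almost no reads. MBP3, known in tomato for the gel tissue of the fruit locules, had 0 and 0 reads in 156OE and 2 and 1 reads in MT. Its MT level over both libraries was 0.146 CPM (exact 95% interval 0.0301 to 0.426), at which 1.48 reads would have fallen in the 156OE libraries together. The absence of reads in 156OE is thus within counting error, and MBP3 did not pass the low-count filter. AGL11 had 0 of 30699259 assigned reads over the 4 libraries, which allows a level of up to 0.0977 CPM (3 reads of the total). Both D-class genes lay below TAGL1 in 156OE replicate 1 and in both MT libraries, and in 156OE replicate 2, with 2 reads of TAGL1 and 0 of the D-class genes, no order could be read. The carpel and ovule genes CRCb and INO, both of the YABBY family, were as low, with 0 and 0 reads in 156OE and 3 and 2 in MT for CRCb, and 0 and 0 reads in 156OE and 1 and 0 in MT for INO. The third gene of that list, CRCa, of the CRABS CLAW type and active in carpels and nectaries, had 49 and 7 reads in 156OE and 13 and 6 reads in MT, or 5.81 and 4.15 CPM in 156OE and 1.16 and 0.640 CPM in MT. Both its 156OE libraries lay above both MT libraries, as in 16.2% of all genes tested on CPM and 22.8% on TMM-scaled levels, and it did not pass over all genes (edgeR adjusted p = 0.262).

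The gene most like TAG1 in its levels was a B-class gene, a class that acts with C-class genes in stamens. Over the 4 libraries, the tested gene nearest in pattern to TAG1 among 18384 was Solyc06g059970, listed as a PISTILLATA-type gene, by the Euclidean distance of centred log2 CPM values (0.197). Solyc06g059970 had 23.7 and 2.97 CPM in 156OE and 10.4 and 13.9 CPM in MT. The other places among the nearest 3 went to Solyc08g007130 and Solyc05g040040, which are on none of the lists and whose names were not looked up. TAP3 (Solyc04g081000), the DEFICIENS-type gene, was 15th. TAP3 had 39.1 and 3.56 CPM in 156OE and 13.1 and 17.7 CPM in MT. The 3 genes nearest to TAGL1 are likewise on none of the lists, and their names were not looked up. TM5 and EJ2, SEPALLATA-type genes, were 13th and 12th nearest to it. The distance between TAG1 and TAGL1 was 1.02, which made TAGL1 the 383rd nearest to TAG1 and TAG1 the 8496th nearest to TAGL1. The distance of TAGL1 from other genes leans on its 2 reads in 156OE replicate 2. Likewise the nearness of TAG1 and Solyc06g059970 leans on 5 reads of each in that library.

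Set within each library against other floral genes, TAG1 gave ratios of reads per effective length that varied by gene. Against TAP3 the ratios were 0.569 and 0.816 in 156OE and 0.819 and 0.670 in MT. Against TM5 they were 0.238 and 0.0853 in 156OE and 0.192 and 0.194 in MT, and the intervals of all libraries overlap. Against FUL1, a FRUITFULL-type gene of inflorescence and fruit, they were 0.307 and 0.0387 in 156OE and 0.171 and 0.196 in MT, and the intervals of the 156OE libraries overlap neither each other nor those of MT. Against WUS, the stem cell gene that activates AGAMOUS in Arabidopsis and is later shut down by it, they were 1.45 and 0.185 in 156OE and 0.528 and 0.799 in MT. The interval of 156OE replicate 1 (1.15 to 1.85) lies above those of both MT libraries (0.418 to 0.665 and 0.613 to 1.04). That of 156OE replicate 2 (0.0548 to 0.496) lies below that of MT replicate 2 and overlaps that of MT replicate 1.

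**Figure D3:**
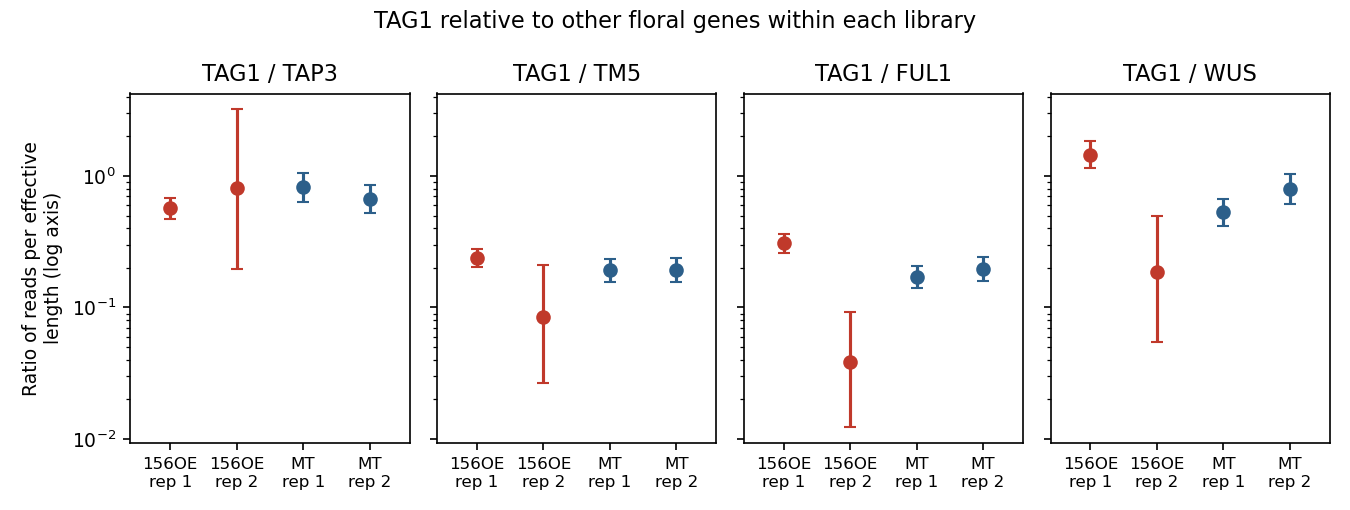
Ratio of TAG1 reads per effective length to those of TAP3, TM5, FUL1 and WUS (log axis) in each 156OE (red) and MT (blue) library, with exact 95% intervals for counting error. The ratios to TM5, FUL1 and WUS are highest in 156OE replicate 1 (0.238, 0.307 and 1.45) and lowest in 156OE replicate 2 (0.0853, 0.0387 and 0.185). For TM5 the intervals of all libraries overlap.

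The split between the 156OE libraries ran through other floral MADS-box genes too, though not all of them. On TMM-scaled levels, 156OE replicate 1 lay above and replicate 2 below both MT libraries for both tested C-class genes, for 3 of 4 B-class IDs and for 3 of 7 IDs of the SEPALLATA and AGL6 types, but for 0 of 4 IDs of the APETALA1 and FRUITFULL types. Of all tested genes, 11.8% had this pattern. On CPM without that scaling the shares were 2 of 2, 4 of 4, 3 of 7 and 0 of 4, against 17.1% of all genes. The place of TAGL1 below MT in 156OE replicate 2 rests on 2 reads, against 3.76 at the MT level, and is within counting error. The lists were chosen with earlier results of these data known, so these shares are no independent test. On the TMM scale TAG1 stood at 1.99 and 0.293 times the MT mean in the 156OE libraries, TAGL1 at 1.76 and 0.613 times, TAP3 at 2.55 and 0.263 times and TM5 at 1.61 and 0.662 times. TM6, the other B-class gene of the DEFICIENS lineage, was at 1.43 and 1.05 times, and FUL1 at 1.18 and 1.39 times.

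**Figure D4:**
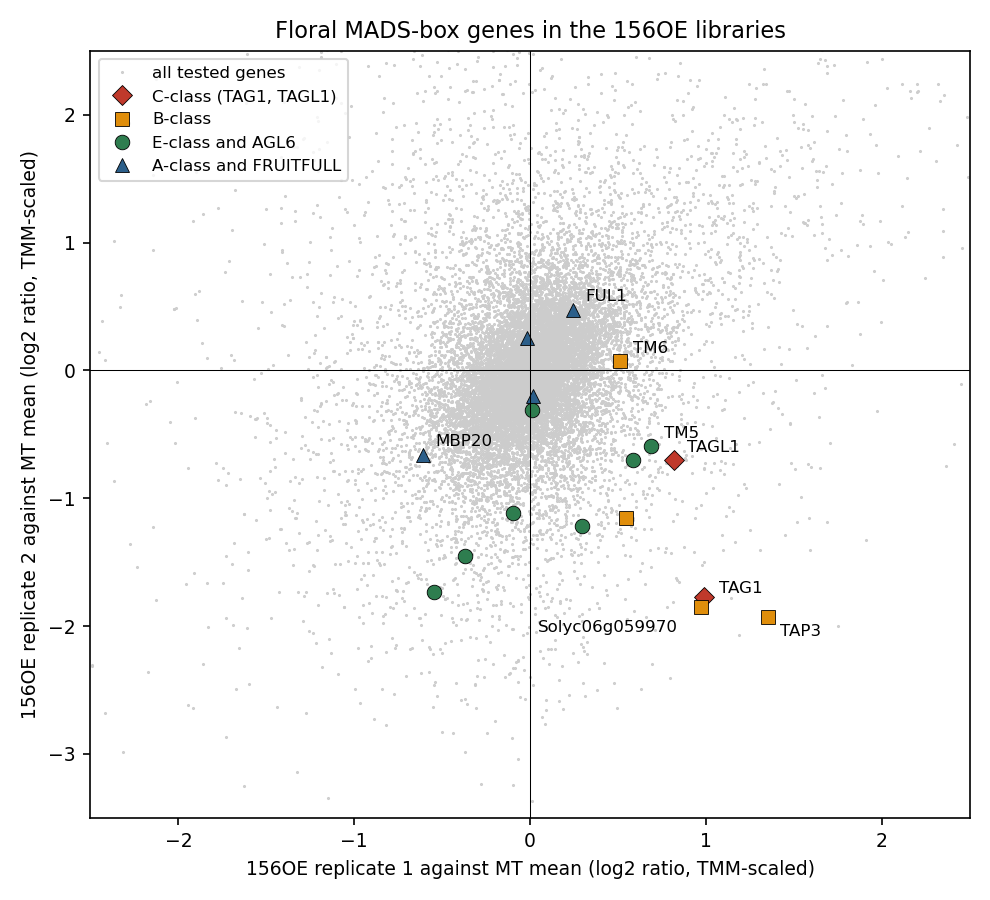
Log2 ratio to the MT mean, on TMM-scaled levels, in 156OE replicate 1 (horizontal axis) and 156OE replicate 2 (vertical axis), for C-class genes (red diamonds), B-class (orange squares), SEPALLATA and AGL6 types (green circles), APETALA1 and FRUITFULL types (blue triangles) and all tested genes (grey points, 17723 of 18385 within the axes). TAG1, Solyc06g059970 and TAP3 lie together at the lower right, above MT in replicate 1 and below MT in replicate 2, TAGL1 lies nearer the centre beside TM5, and FUL1 lies to the upper right of the origin.

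None of these lists had a member past the threshold with all 4 libraries. In edgeR over all genes, 0 of 4 B-class IDs, 0 of 7 of the SEPALLATA and AGL6 types and 0 of 4 of the APETALA1 and FRUITFULL types were called, and DESeq2 called 0 of each. At an unadjusted p under 0.05 the B-class and SEPALLATA lists had 0 members, and the FRUITFULL list had FUL1 higher and MBP20 lower. The median log2 change was 0.36 for the B-class list, -0.19 for the SEPALLATA list and 0.01 for the FRUITFULL list, beside 0.01 over all genes tested. With 156OE replicate 2 left out, 3 of 4 B-class IDs (TAP3, Solyc06g059970 and TM6) and 2 of 7 SEPALLATA and AGL6 IDs (TM5 and EJ2) were called higher and MBP20 lower, beside 3.45% of all genes higher and 2.28% lower. With 156OE replicate 1 left out, TAP3 (adjusted p = 0.0322 in edgeR) and 4 of 7 SEPALLATA and AGL6 IDs (TM29, EJ2, AGL6 and Solyc04g005320) were called lower and no listed ID of these types higher, beside 2.48% of all genes lower and 8.16% higher. In that fit Solyc06g059970 had a log2 change of -1.84 (adjusted p = 0.0526 in edgeR). Both fits share the MT libraries.

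Upstream regulators of C-class genes had varied patterns. FA, the tomato LEAFY gene, which activates floral organ identity genes, had 66.5 and 41.2 CPM in 156OE and 118 and 102 CPM in MT, with both 156OE libraries below both MT libraries. FA was the member with the lowest p (edgeR adjusted p = 0.295, log2 change -0.92 ± 0.20 SE), and DESeq2 called it lower. AN, the UFO-type partner of FA, had 93.3 and 48.1 CPM in 156OE and 87.6 and 82.3 CPM in MT. The AP2-type genes belong to the family of APETALA2, which represses AGAMOUS in the outer whorls of Arabidopsis flowers. AP2d had 108 and 64.7 CPM in 156OE and 68.7 and 75.3 CPM in MT, and AP2b 7.35 and 10.1 CPM in 156OE and 5.89 and 6.94 CPM in MT. AP2c had 20.3 and 13.1 CPM in 156OE and 13.2 and 15.0 CPM in MT. The 156OE libraries were both lower than either MT library for AP2a, at 4.50 and 1.78 CPM in 156OE and 4.998 and 5.98 CPM in MT, and for Solyc09g007260, listed as an AP2-type gene, at 55.2 and 31.4 CPM in 156OE and 71.7 and 63.3 CPM in MT. Neither passed in edgeR with all 4 libraries. With FA, 3 of the 8 IDs had both 156OE libraries below both MT libraries, on CPM and on TMM-scaled levels. Of all tested genes, 29.7% did so on CPM and 23.7% on TMM-scaled levels. Both lay above both MT libraries for 1 ID on either scale, AP2b on CPM. Among all tested genes this held for 16.2% on CPM and 22.8% on TMM-scaled levels. Of the 8 IDs of this list, all tested, edgeR called 0 (1 at an unadjusted p under 0.05, FA), the median log2 change was -0.13, and the split of TAG1 was shown by 1 on TMM-scaled levels (AN), against 11.8% of all genes, and by 3 on CPM (AN, AP2c and AP2d), against 17.1%.

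Markers of other parts of the sample moved with the libraries to different degrees. The summed level of the 6 meristem markers was 366 and 248 CPM in 156OE and 367 and 365 CPM in MT. In 156OE replicate 2, FA, AN and S stood at 0.375, 0.566 and 0.555 times the MT mean on CPM. WUS, CLV3 and TKN2 stood there at 0.896, 1.05 and 0.984 times, so the meristem markers did not move together. The summed level of the 4 leaf markers was 1233 and 1255 CPM in 156OE and 849 and 886 CPM in MT. The leaf sum was mostly Solyc03g034220, listed as a Rubisco small subunit gene, at 805 and 694 CPM in 156OE and 588 and 610 CPM in MT, and RBCS3, at 233 and 472 CPM in 156OE and 136 and 131 CPM in MT. RBCS1 had 120 and 59.3 CPM in 156OE and 71.5 and 74.2 CPM in MT, and the chlorophyll-binding protein gene CAB3C 74.3 and 29.97 CPM in 156OE and 53.0 and 70.3 CPM in MT. RBCS1 and CAB3C thus had the split of TAG1, as did 17.1% of all tested genes on CPM and 11.8% on TMM-scaled levels. The other 2 leaf IDs had both 156OE libraries above both MT libraries. Of all tested genes, 16.2% had that pattern on CPM and 22.8% on TMM-scaled levels. Of the 3 stamen and pollen markers, LAT52 and Solyc02g079810 were at 0 reads in both 156OE libraries, with 1 read of LAT52 in MT replicate 2. LAT56 had 1.66 and 1.19 CPM in 156OE and 6.16 and 4.59 CPM in MT. Its 156OE libraries both lay below both MT libraries, as in 29.7% of all tested genes on CPM and 23.7% on TMM-scaled levels. The B-class list, genes of petals and stamens, summed to 152 and 54.0 CPM in 156OE and 87.7 and 92.6 CPM in MT. This sum thus had the split of TAG1. In 156OE replicate 2 it was mostly TM6, at 39.7 CPM there and 44.2 and 41.9 CPM in MT. TAP3, Solyc08g067230 and Solyc06g059970 had 6, 13 and 5 reads in that library, at 0.231, 0.395 and 0.244 times the MT mean on CPM. The part of any of these in the TAG1 values was not tested.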

How the data were processed

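Total RNA of floral apices and closed flower buds was sequenced, with 2 libraries per genotype. Per the submitters' processing notes, Salmon, HISAT2, Trimmomatic, SAMtools and Picard were used. Their order and versions, the build and the annotated gene set were not given in the sources used here. Estimated counts, as deposited by the authors, are unscaled reads per transcript and were rounded to whole numbers for tests. The TPM values deposited by the authors are scaled by effective length and used as given. The main test was edgeR 4.0.16 (quasi-likelihood F, TMM, filterByExpr, genotype as the only term, Benjamini-Hochberg over all genes at 0.05) in R 4.3.3. Standard errors are the unshrunk log2 change over the square root of F. The code was tested on simulated data. Alternatives used DESeq2 1.42.0, limma 3.58.1, other scalings and filters, a replicate block and each library left out. Intervals are 95%. Those of read levels, ratios and shares cover counting error only. Those of log2 changes come from the edgeR fit and include the spread between libraries.

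Pairs of gene ID and symbol were recalled from tomato nomenclature, since neither the files nor the RefSeq gene table used (assembly SLM_r2.1) pairs them. A symbol is printed where that table has it, or a synonym, on the same chromosome within 0.03 in relative gene order, as held for 33 of 44 listed IDs; this check is not proof of a name, and other IDs are printed bare, with the type of gene they were listed as. AGL11 lay on the right chromosome but 0.0372 away, so its name rests on the choice of members. No coordinates or sequences are given. Members and lists were chosen with earlier results of these data known. Named genes were the members, any listed gene and the 3 nearest in pattern per tested member. The markers were the meristem, leaf, and stamen and pollen lists. Replicate 1 minus replicate 2 differences of the genotypes correlated at -0.25 across genes. The labels do not say whether replicate numbers pair the libraries. With 2 libraries per genotype, 1 of them shallow, this correlation cannot decide it.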

Additional observations from a re-analysis of the deposited data

How the results depend on the processing

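With 2 libraries a genotype and 5 TAG1 reads in the shallowest, depth limits every statement on 156OE. The log2 change of TAG1 ranged from -1.77 to 0.99 over fits leaving out 1 library, and that of TAGL1 from -0.73 to 0.82. In limma on log2(TPM + 1) the signs reversed, to -0.44 for TAG1 and -0.027 for TAGL1, and on log2(TPM + 0.1) to -0.55 and -0.10; the median of all genes was then -0.17 and -0.19, and relative to it TAG1 was at -0.27 and -0.37 and TAGL1 at 0.14 and 0.08. None of these limma values passed, and the cause was not tested. With a replicate block the log2 changes were 0.03 for TAG1 and 0.31 for TAGL1, again not called, and no gene was called across all genes, against 1 without it; the crossed pairing, chosen after seeing the data, also called 0 higher and 0 lower. Over all genes, 57 were called higher and 28 lower without the low-count filter, 145 and 54 by DESeq2, and 0 higher by limma with either pseudocount. Leaving out 1 library gave 0 to 1532 higher and 0 to 466 lower. Lists without a call gave 0 to 3 calls for B-class, 0 to 4 for SEPALLATA and AGL6, 0 to 1 for APETALA1 and FRUITFULL, 0 to 3 for the regulators, 0 to 1 for the carpel YABBY genes and 0 to 4 for SBP-box when 1 library was left out. DESeq2 called 1 regulator (FA) and 3 SBP-box IDs, and 2 SBP-box IDs were called without the filter. Shares of the members and ratios of the 156OE libraries kept within counting error under annotated lengths and TMM library sizes. Of the 3 genes nearest in pattern, 1 for TAG1 and 0 for TAGL1 were the same on log2(TPM + 1), and 2 of each with a prior count of 0.5; Solyc06g059970 ranked 1 and 2 from TAG1 in these.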
